A study of Homo sapiens with 11 samples.

Results

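The genes described here are the PGC-1 coactivators and the nuclear-encoded factors of mitochondrial biogenesis that work with them or below them: PPARGC1A, PPARGC1B, PPRC1, ESRRA, NRF1, GABPA, TFAM, TFB1M and TFB2M. They were chosen by symbol and not by their values, and the 9 genes are 9 of the 45965 genes in the deposited table. Each symbol occurred there once, and all 9 genes passed the filter on low counts together with 16324 genes in all.

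PGC-1 proteins do not bind DNA themselves: they are recruited to promoters by transcription factors and bring in the enzymes that open chromatin and start transcription. Among the factors they assist are the nuclear receptor ERRα, the nuclear respiratory factor NRF1 and the ETS factor GABP, and these switch on nuclear genes of the respiratory chain and of mitochondrial gene expression. TFAM, TFB1M and TFB2M are encoded by nuclear genes and act in the mitochondrion. There TFAM packages mitochondrial DNA and marks its promoters, and TFB2M helps the mitochondrial RNA polymerase open them. TFB1M modifies ribosomal RNA of the small mitochondrial subunit. In many tumour cells PGC-1α supports oxidative metabolism, and its level varies widely between lines.

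The libraries came from H1299, a human line from a non-small cell lung carcinoma. The cells were transfected with a mutant construct (5 µg of DNA) and selected in neomycin at 800 µg/ml for 14 days. Every group therefore carried a transfected mutant, and no library from cells without one was analysed here. The mutants combined 1 of 2 changes, R175H or R273H, with 1 of 2 common forms of codon 72, proline (P72) or arginine (R72). There were 3 libraries of R175H with P72, 3 of R175H with R72, 4 of R273H with P72 and 1 of R273H with R72, and the question of the design is how codon 72 alters what each mutant does. Sources used here do not say whether the libraries of a group were separate cultures, so the p-values weigh differences against a spread among libraries that may be purely technical.

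The labels also name 2 batches, b1 and b2, without saying what a batch was. All libraries of R175H with P72 and the single library of R273H with R72 were b2, while R175H with R72 had 1 b1 library (replicate 1) and R273H with P72 had 3 (replicates 2, 3 and 4). Library totals ran from 8346926 to 12829560 estimated counts of 3′ end tags, and between 19540 and 20489 genes had a count. Epithelial KRT8 (240.9 to 300.4 CPM, counts scaled to a common library size) and mesenchymal VIM (755 to 1827 CPM) were high. The other epithelial markers KRT19, EPCAM and CDH1 reached at most 0.36, 0.71 and 0.12 CPM, while KRT18 ran from 656 to 1043 CPM. The lung markers SFTPC and SCGB1A1 and the markers COL1A2, CD3E, CDH5 and ALB of other cell types were at 0 in all 11. In bulk RNA a change in the share of cells that make a transcript cannot be told apart from a change per cell.

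Promoter sequences show which factors of this group have their own binding letters in front of the others. RefSeq promoters (GRCh38.p14, 250 bases before to 50 after the start of a gene) were found for 8 of the 9 genes and searched on both strands for motifs picked after the expression values were known. A member counted once if any of its promoters held a motif, while the shares of all count each promoter. The NRF1 motif, GCGCA and GCGC with any base between them, stood in promoters of 3 of the 8 genes (ESRRA, TFAM and TFB1M). Of all 35116 promoters, 5.78% held it. The ETS core CCGGAAG, which GABP binds, stood in 2 of the 8 (GABPA and TFB1M) and in 10.3% of all. The 5 windows below are written 5′ to 3′ along the gene's strand with the motif in capitals, and are shown because they carry these letters in front of members whose values follow.
ESRRA, NRF1 motif, chr11:64305421-64305450, plus strand: tcgtccgggcGCGCAGGCGCcgcccgcccc
TFAM, NRF1 motif, chr10:58385337-58385366, plus strand: acgctctcccGCGCCTGCGCcaattccgcc
TFB1M, NRF1 motif, chr6:155314597-155314626, minus strand: gcaggacttaGCGCATGCGCtctcagcacg
TFB1M, ETS core, chr6:155314553-155314579, minus strand: gcggtcatcgCTTCCGGtgggataggt
GABPA, ETS core, chr21:25734896-25734922, plus strand: ctccgctctaCTTCCGGccctggctcc

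TFAM and both ETS windows hold their motif on the opposite strand, so the capitals read as its reverse complement, and none of the windows of one promoter overlap. The receptor element AAGGTCA, which ERRα and related receptors bind, was in promoters of 0 of the 8 genes and in 3.92% of all. YY1 letters AAGATGGC were in 1 of the 8 (PPRC1) and in 2.89% of all, and the SP1 letters GGGGCGGGG in 2 (ESRRA and TFAM) and in 15.7%. One of the SP1 matches of TFAM overlaps another of the same kind. TFB2M, PPARGC1A and PPARGC1B had none of these motifs in the window, which says only that the letters are not there. The PPARGC1B window (149771690 to 149771989) lies inside the gene span given below. Of the PPARGC1A windows, one (23881052 to 23881351) lies inside its span and another (24472856 to 24473155) outside it. The starts of these spans were thus not searched.

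**Figure D1:**
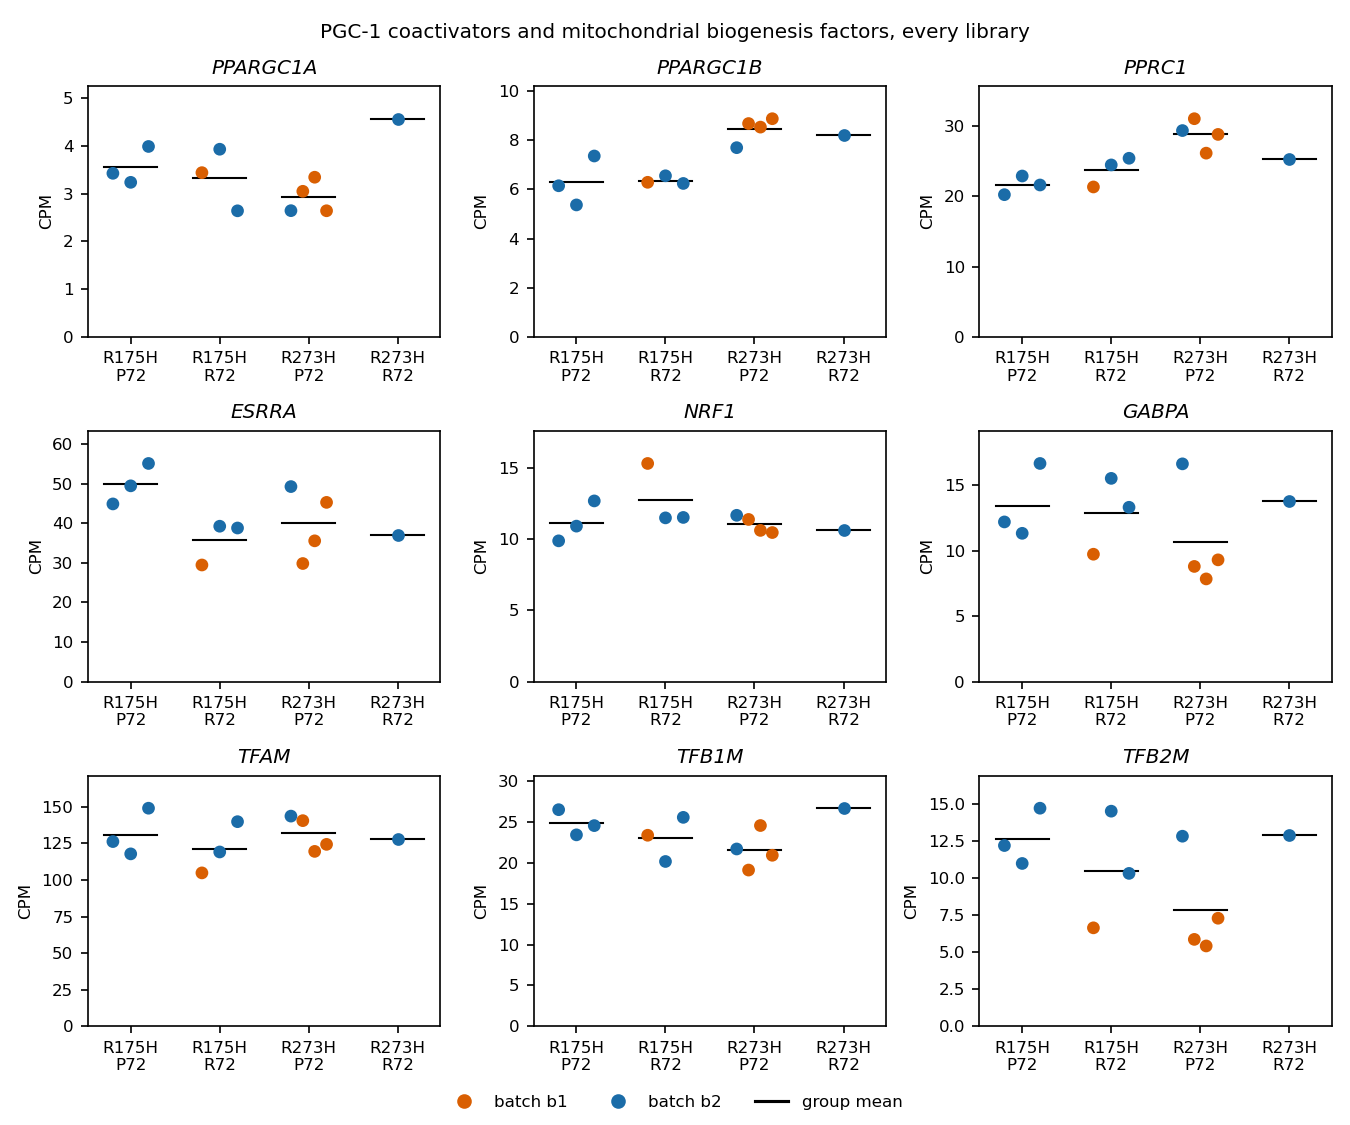
Each panel shows 1 gene, with its level in CPM on the vertical axis and the 4 groups along the horizontal axis; every point is 1 library, coloured by batch, and the bar is the group mean. PPRC1 and PPARGC1B sit higher in the R273H libraries with P72 than in the R175H libraries with P72, and in TFB2M the b1 points (5.42 to 7.29) lie under the b2 points (10.3 to 14.7).

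PPARGC1A encodes PGC-1α, the best known of the coactivators, and lies on chromosome 4 (hg38, 23755041 to 23904089, minus strand). It was rare in these cells, at 22 to 49 counts per library. The R175H libraries with P72 had 3.43, 3.24 and 3.99 CPM, and those with R72 had 3.44, 3.93 and 2.64 CPM. On R273H, the P72 libraries had 2.64, 3.05, 3.35 and 2.64 CPM and the single R72 library had 4.57 CPM. The single R72 library on R273H was the highest of the 11, and the other groups overlapped one another.

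On R175H, the log2 fold change of PPARGC1A for R72 over P72 was -0.12 (SE 0.27, 95% interval -0.68 to 0.44, adjusted p = 0.899, edgeR quasi-likelihood test with Benjamini-Hochberg adjustment over all genes, as for the adjusted p-values that follow). On R273H it was 0.74 (SE 0.38, interval -0.05 to 1.54, adjusted p = 0.678, edgeR), a comparison in which R72 is 1 library. The difference between these effects was 0.87 (SE 0.50, interval -0.18 to 1.91, adjusted p = 0.595, edgeR). None passed the threshold of 0.05, and the wide intervals leave room for changes in either direction on R175H. Counting error alone gives PPARGC1A a coefficient of variation of 17.6%, and the libraries of a group spread by 13.8%.

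PPARGC1B encodes PGC-1β, a coactivator close in sequence and role to PGC-1α (chromosome 5, 149730298 to 149855022, plus strand). The R175H libraries had 6.15, 5.37 and 7.36 CPM with P72 and 6.29, 6.55 and 6.24 CPM with R72. The R273H libraries had 7.70, 8.68, 8.54 and 8.88 CPM with P72 and 8.21 CPM with R72. With P72 the R273H libraries lay wholly above the R175H libraries, a pattern seen in 14% of the genes tested. Counting error alone gives PPARGC1B a coefficient of variation of 11.9%. The fitted log2 difference of R273H over R175H was 0.35 on P72 (SE 0.21, adjusted p = 0.293, edgeR) and 0.40 on R72 (SE 0.25, adjusted p = 1, edgeR), and neither passed.

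PPRC1 encodes the PGC-1-related coactivator PRC, which is described as a growth-responsive member of the family (chromosome 10, 102132994 to 102150331, plus strand). It was the 1 member that passed in a comparison between groups. With P72 the R175H libraries had 20.3, 22.9 and 21.6 CPM (mean 21.6 ± 1.33 SD, n = 3), and the R273H libraries had 29.4, 31.1, 26.2 and 28.9 CPM (28.9 ± 2.03, n = 4). The groups did not overlap, and in the fit that takes account of batch PPRC1 was 1.42-fold higher in R273H (log2 0.50, SE 0.13, interval 0.23 to 0.78, adjusted p = 0.0126, edgeR quasi-likelihood test). The log2 difference was 0.42 without the batch term (adjusted p = 0.0182, edgeR) and 0.44 with GC corrected (adjusted p = 0.0307, edgeR).

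With R72 the R175H libraries had 21.4, 24.5 and 25.5 CPM of PPRC1 and the R273H library had 25.3 CPM. That library lay inside the range of the R175H libraries, and the difference between the R72 effects on the 2 mutants was -0.45 (SE 0.22, interval -0.91 to 0.01, adjusted p = 0.500, edgeR). The PPRC1 call on P72 held in 9 of the 11 fits that left out 1 library. It was lost without R273H P72 replicate 1 (log2 0.64, adjusted p = 0.0657, edgeR), without R175H R72 replicate 1 (0.44, adjusted p = 0.0757), and in batch b2 alone (0.44, adjusted p = 0.105), where 1 R273H library with P72 remained.

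**Figure D2:**
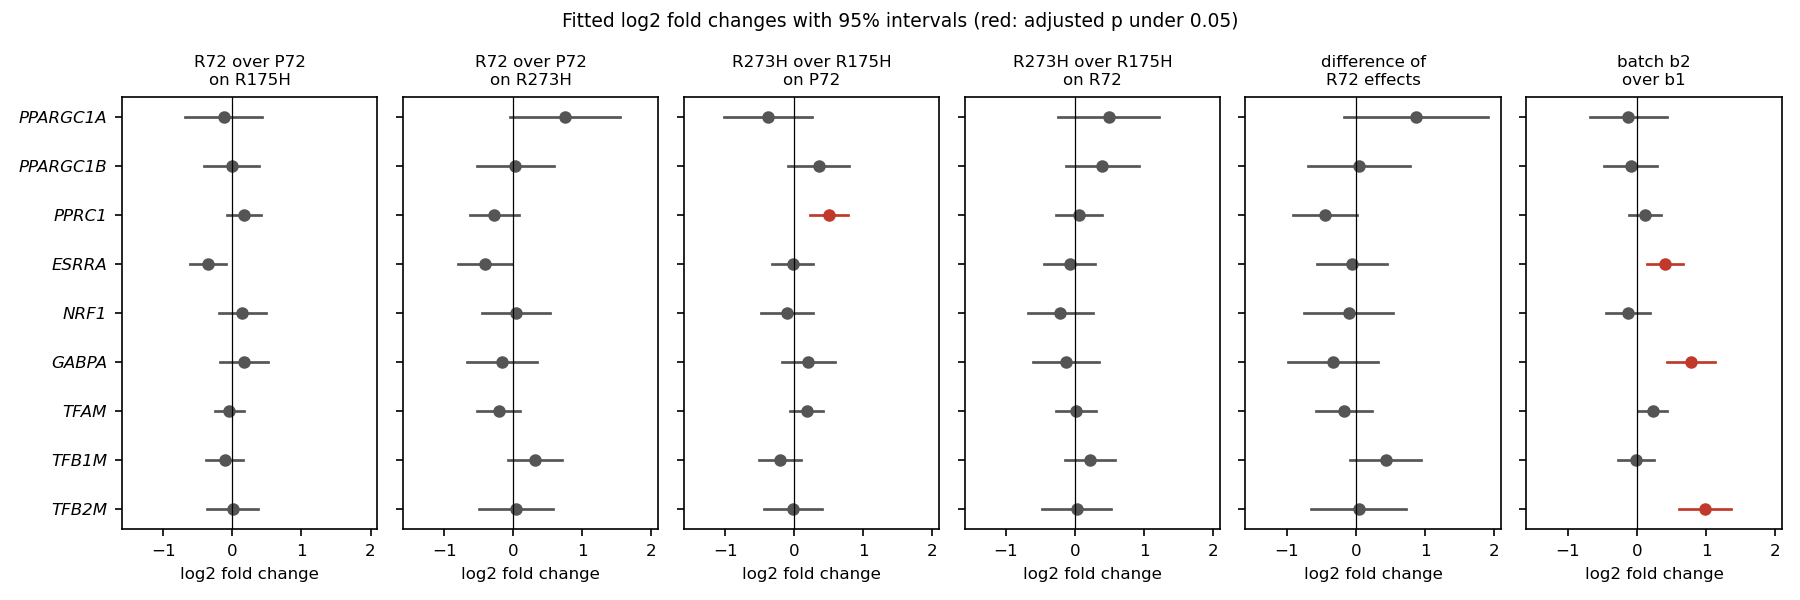
The horizontal axes give log2 fold changes with 95% intervals for the 9 genes in each comparison, and red points passed an adjusted p of 0.05 in edgeR's quasi-likelihood test. PPRC1 is red for R273H over R175H on P72, and ESRRA, GABPA and TFB2M are red for batch b2 over b1.

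ESRRA encodes ERRα, an orphan nuclear receptor through which PGC-1 proteins reach many respiratory genes (chromosome 11, 64305572 to 64316743, plus strand). The R175H libraries had 44.9, 49.4 and 55.1 CPM with P72 and 29.4, 39.2 and 38.8 CPM with R72. The R72 libraries all lay under the P72 libraries. The fitted log2 difference was -0.35 (SE 0.13, interval -0.62 to -0.09, adjusted p = 0.199, edgeR), so it did not pass over all genes. ESRRA was the 1 member of 9 whose R72 libraries on R175H lay wholly under the P72 libraries, a pattern seen in 6.15% of the genes tested.

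On R273H, ESRRA stood at 49.2, 29.8, 35.5 and 45.2 CPM with P72 and at 37 CPM with R72 (log2 -0.41, SE 0.19, interval -0.81 to -0.02, adjusted p = 0.627, edgeR). The fit takes account of batch, and the 3 lowest of the 11 values of ESRRA were b1 libraries. Both estimates were negative and neither passed. The one on R175H was -0.22 with GC corrected, and the one on R273H was -0.12 without the batch term. TRMT112, a gene on the opposite strand, overlaps the 3′ end of ESRRA at 554 to 811 CPM. The strand setting of the counting is not known here, so tags of this pair could have been mixed.

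NRF1 encodes nuclear respiratory factor 1, which binds the GC-rich motif shown above (chromosome 7, 129611714 to 129757082, plus strand). Its 11 libraries ran from 9.88 to 15.3 CPM, and the highest was R175H R72 replicate 1, a b1 library; the other 2 libraries of that group had 11.5 CPM each. The R175H libraries with P72 had 9.88, 10.9 and 12.7 CPM and the R273H libraries 11.7, 11.4, 10.6 and 10.5 with P72 and 10.6 with R72. No comparison of NRF1 passed.

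GABPA encodes the DNA-binding subunit of GABP, also called NRF2α (chromosome 21, 25734570 to 25772460, plus strand). It varied by batch more than by group. The b1 libraries had 9.73 CPM (R175H with R72) and 8.80, 7.84 and 9.30 CPM (R273H with P72). In b2 the values were 12.2, 11.3 and 16.7 CPM (R175H with P72), 15.5 and 13.3 CPM (R175H with R72), 16.6 CPM (R273H with P72) and 13.8 CPM (R273H with R72). Each b1 library lay under each b2 library, and the means were 8.92 ± 0.812 (SD, n = 4) and 14.2 ± 2.12 (n = 7). ATP5PF, on the opposite strand, overlaps the 5′ end of GABPA at 89.97 to 124 CPM, and its own batch difference was 0.17 (adjusted p = 0.226, edgeR).

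TFAM, the packaging and transcription factor of mitochondrial DNA, is on chromosome 10 (58385022 to 58399221, plus strand) and had 883 to 1847 counts per library, the most of the 9 genes. The R175H libraries had 126, 118 and 149 CPM with P72 and 105, 119 and 140 CPM with R72, and the R273H libraries had 144, 141, 120 and 124 CPM with P72 and 128 CPM with R72. All groups overlapped. For R273H over R175H on P72 its log2 difference was 0.18 (SE 0.12, interval -0.06 to 0.42, adjusted p = 0.334, edgeR), and this interval spans 0. It was 0.09 with GC corrected and 0.01 without the batch term.

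TFB1M, which encodes the ribosomal RNA methyltransferase, is on chromosome 6 (155257509 to 155314493, minus strand). The R175H libraries had 26.5, 23.4 and 24.6 CPM with P72 and 23.4, 20.2 and 25.6 CPM with R72, and the R273H libraries had 21.7, 19.1, 24.6 and 20.9 CPM with P72 and 26.7 CPM with R72. All the values overlapped save that the single R273H R72 library was the highest. No comparison passed. TIAM2, on the opposite strand, overlaps the 3′ end of TFB1M at 1.64 to 3.92 CPM.

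TFB2M, the partner of the mitochondrial RNA polymerase, is on chromosome 1 (246540560 to 246566324, minus strand) and split by batch even more widely than GABPA. The b1 libraries had 6.65 CPM (R175H with R72) and 5.87, 5.42 and 7.29 CPM (R273H with P72), with a mean of 6.31 ± 0.830 (SD, n = 4). In b2 there were 12.2, 10.99 and 14.7 CPM (R175H with P72), 14.5 and 10.3 CPM (R175H with R72), 12.8 CPM (R273H with P72) and 12.9 CPM (R273H with R72), with a mean of 12.6 ± 1.65 (n = 7). The ranges did not meet.

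**Figure D3:**
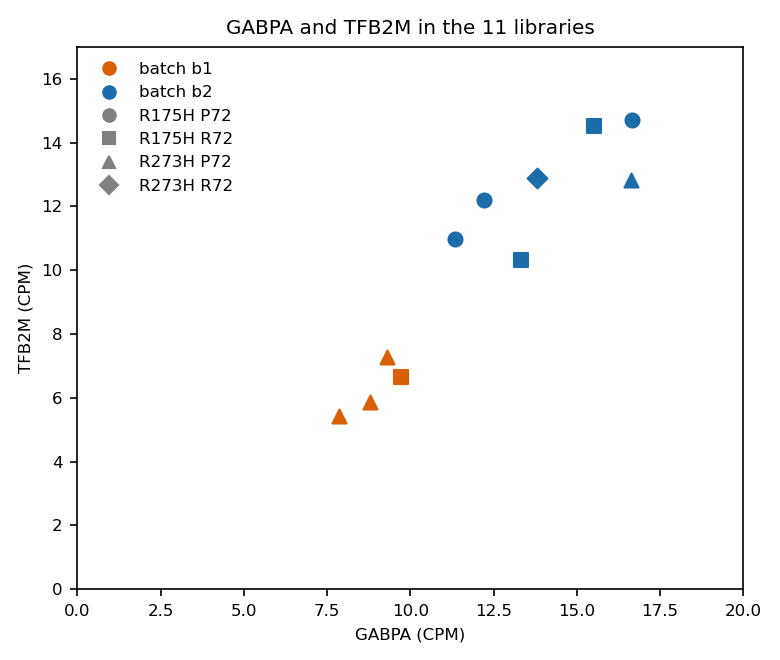
Each point is 1 of the 11 libraries, with GABPA on the horizontal and TFB2M on the vertical axis, both in CPM, coloured by batch and shaped by group. The 4 b1 libraries sit at the lower left, under 10 CPM of GABPA and 8 CPM of TFB2M, apart from the 7 b2 libraries.

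Within b2 alone the pair had a Pearson r of 0.74 and a Spearman rho of 0.79 on log2 values over the 7 libraries, a description of points that share library depth and scaling. Among the other pairs of GABPA there, the highest were r = 0.75 with NRF1 (rho 0.75), 0.72 with PPARGC1B (rho 0.75) and 0.63 with TFAM (rho 0.75). The rest were 0.44 with PPRC1, 0.20 with ESRRA, 0.09 with PPARGC1A and -0.47 with TFB1M. PPARGC1A and TFB2M gave r = 0.63 and a rho of 0.79, while the other pairs of PPARGC1A ran from r = -0.41 (PPRC1) to 0.35 (PPARGC1B).

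Taking the 9 genes together, 0 of 9 passed for R72 over P72 on R175H, where 1.13% of the 16324 genes tested passed in edgeR. Of the 9, 1 had an unadjusted p under 0.05 (ESRRA), as did 13.6% of all genes, and DESeq2 and limma-voom called 0 of the 9. PPARGC1A got no adjusted p from DESeq2 there, so DESeq2 could not call it. The median log2 fold change of the 9 was -0.01, beside 0.00 for all genes. For R72 over P72 on R273H, 0 of 9 passed and 0% of all genes did. Under an unadjusted 0.05 were 1 of 9 (ESRRA) and 7.75% of all genes, and DESeq2 and limma-voom again called 0 of the 9. The median was 0.03, beside 0.00. In this comparison PPARGC1A, PPRC1, ESRRA and TFB1M got no adjusted p from DESeq2, so DESeq2 could not call them. ESRRA's call on R175H appeared once, in a fit without the filter on low counts (log2 -0.36, SE 0.11, adjusted p = 0.0491, edgeR).

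For R273H over R175H on P72, 1 of 9 passed (PPRC1, higher) against 14.6% of all genes, of which 6.95% were higher, so a share of this size is near the background. PPARGC1B and PPRC1, 2 of the 9, did not overlap between these groups and were higher in R273H, as were 14% of the genes tested. The median of the 9 was -0.01, beside 0.00. On R72, 0 of 9 passed against 0.0429% of all genes, with 0 of 9 under an unadjusted p of 0.05 and 0 calls by DESeq2 and limma-voom. For the difference of the R72 effects, 0 of 9 passed against 0.0306%, also with 0 of 9 under 0.05 and 0 by the other tools. For that difference, PPARGC1A, PPRC1, GABPA and TFB1M got no adjusted p from DESeq2, so DESeq2 could not call them. These comparisons share libraries and are not independent.

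Batch b2 differed from b1 in 3 of the 9 genes, all higher (GABPA, TFB2M and ESRRA), against 9.21% of all genes, of which 5.61% were higher. TFB2M was 1.98-fold higher in b2 (log2 0.99, SE 0.18, adjusted p = 0.00143, edgeR). GABPA was 1.72-fold higher (0.79, SE 0.17, adjusted p = 0.00435) and ESRRA 1.33-fold higher (0.41, SE 0.12, adjusted p = 0.0413). Both GABPA and TFB2M lay in b2 wholly above b1, as did 5.27% of the genes tested. The median of the 9 was 0.12, beside -0.02.

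Only R175H with R72 and R273H with P72 hold libraries of both batches, so the batch term rests on them. TFB2M was at 6.65 CPM in the b1 and 12.4 in the b2 libraries of R175H with R72, and at 6.19 and 12.8 CPM in those of R273H with P72. GABPA was at 9.73 and 14.4 CPM, and at 8.65 and 16.6 CPM. ESRRA was at 29.4 and 39.0 CPM, and at 36.9 and 49.2 CPM. The direction was the same in both groups for all 3 genes. Without R273H P72 replicate 1 none of them passed: TFB2M was at 0.92 (adjusted p = 0.105, edgeR) and GABPA at 0.58 (adjusted p = 0.269). ESRRA passed in 5 of the 11 fits that left out a library, with log2 values of 0.34 to 0.50 over the 11. It was lost without R175H P72 replicate 2, R175H R72 replicates 1 and 2, and R273H P72 replicates 1, 2 and 3 (adjusted p from 0.0564 to 0.301, edgeR).

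The batches also differed with the GC content of a gene's 3′ end. Over its last 500 nt GABPA has 30.5% GC and TFB2M 31.4%, the lowest of the 9, followed by TFAM with 33.8%, while ESRRA has the highest with 60.3%. The median batch difference was 0.14 (log2) over the 1067 genes tested under 35% GC, of which 10.6% were called higher, and -0.23 over genes of at least 60% GC. With GC corrected for in each library, TFB2M stood at 0.81 (adjusted p = 0.00728, edgeR), GABPA at 0.59 (adjusted p = 0.033) and ESRRA at 0.57 (adjusted p = 0.00528). TFAM moved from 0.23 (adjusted p = 0.169, edgeR) to 0.07.

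**Figure D4:**
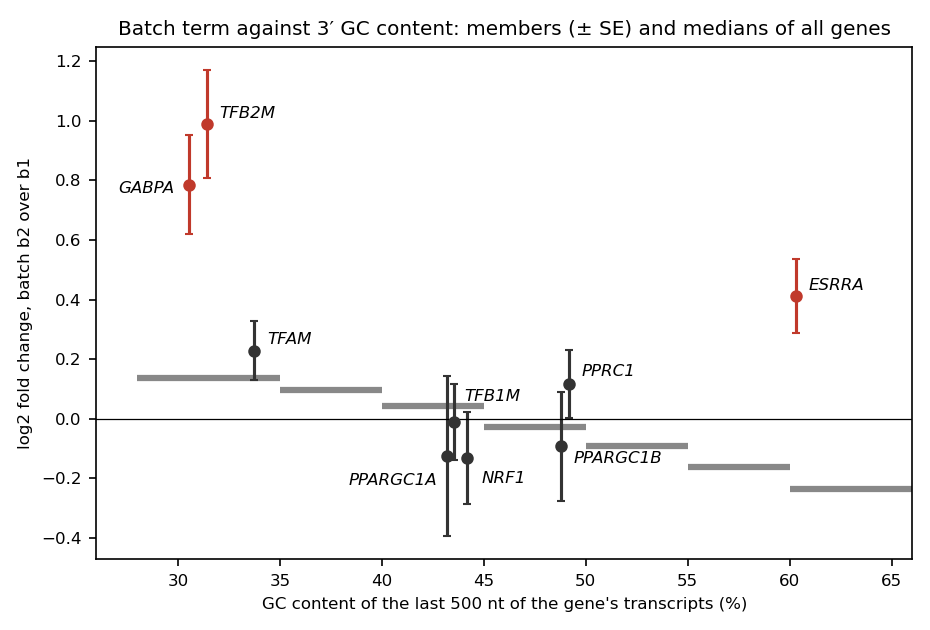
The horizontal axis is the GC content (%) of the last 500 nt, the vertical axis the log2 fold change of batch b2 over b1, with points for the 9 genes (bars: SE, red where called) and grey lines for the median of all genes in each GC bin. TFB2M at 0.99 and GABPA at 0.79 lie far above the median of 0.14 for genes of their GC content, and ESRRA at 0.41 lies above a median of -0.23.

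Lists of the partners and effectors of these 9 genes were counted beside them in the same fits. For R72 over P72 on R175H, where the background is 1.13%, the list of PGC-1 regulators and cofactors (32 genes) had 0 calls for higher and 1 for lower. That gene was CRTC1, a coactivator of CREB, a transcription factor that can induce PPARGC1A. Its R175H libraries had 6.75, 9.54 and 8.25 CPM with P72 and 8.07, 2.92 and 3.48 CPM with R72. The R72 library of b1 lay among the P72 libraries and the R72 libraries of b2 lay under them. The log2 difference was -1.17 (SE 0.26, adjusted p = 0.0258, edgeR). It did not pass with GC corrected (-0.86, adjusted p = 0.151), without the batch term (-0.78, adjusted p = 0.607) or without R175H P72 replicate 2 (-1.05, adjusted p = 0.143), R175H R72 replicate 2 (-0.99, adjusted p = 0.305) or R175H R72 replicate 4 (-1.13, adjusted p = 0.0748). CRTC1 got no adjusted p from DESeq2 in this comparison, so DESeq2 could not call it. The other 6 lists had 0 calls on R175H in edgeR and in limma-voom and 2 in DESeq2, which called 333 of all 16324 genes there. Of their 84 genes, 16 were under an unadjusted p of 0.05 in edgeR, as were 13.6% of all genes. Over all 7 lists (116 genes), edgeR called 0 for R72 on R273H, 0 for R273H over R175H on R72 and 0 for the difference of the R72 effects. Under an unadjusted p of 0.05 there were 8, 9 and 12 of the 116 genes, beside 7.75%, 4.62% and 10.2% of all genes. In each of these comparisons limma-voom called 0, while DESeq2 called 0, 0 and 1.

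For R273H over R175H on P72, where 14.6% of all genes passed, the lists had calls in both directions. Among the PGC-1 regulators 1 of 32 was higher and 2 were lower. Among the genes of mitochondrial DNA transcription and replication 1 of 16 was higher and 3 were lower, and mitochondrial RNA processing had the same counts. Of 19 described PGC-1 and NRF1 targets, 0 were higher and 4 lower, of 9 genes of mitochondrial protein import 2 were higher and 2 lower, and of 11 partner receptors and GABP subunits 1 was higher. The 13 mitochondrially encoded mRNAs, the products of the machinery that TFAM and TFB2M serve, had 6 higher and 0 lower, with a median log2 difference of 0.37, beside 0.00 for all genes. Medians of the other 6 lists ran from -0.10 (the targets) to 0.20 (the partner receptors and GABP subunits). Genes behind small counts are named here after their values were seen: the higher partner was GABPB2, a partner subunit of GABPA (0.55, adjusted p = 0.0216, edgeR), the DNA replication gene called higher was POLG2 (0.57, adjusted p = 0.0437), and the deacetylase gene SIRT1 was among the lower regulators (-0.51, adjusted p = 0.00585). The POLG2 value is adjusted for batch: with P72 it had 9.98, 8.86 and 11.7 CPM in R175H and 16.6 CPM (b2) and 6.45, 7.61 and 8.24 CPM (b1) in R273H. The b1 libraries of R273H lay under all of R175H and the b2 library above them. The shift of the mitochondrially encoded mRNAs was not particular to this comparison, but the comparisons share libraries and do not repeat it independently. All 13 were positive for R72 over P72 on R175H (median 0.26, 0 called, 6 under an unadjusted p of 0.05, beside 13.6% of all genes). All 13 were also positive for R273H over R175H on R72 (median 0.28). For batch 12 were positive (0.20), for R72 on R273H 10 (0.11), and in the difference of the R72 effects 2 (-0.15).

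LONP1, the mitochondrial protease that degrades TFAM, fell in R273H (log2 -0.75, SE 0.10, adjusted p = 9.83e-05, edgeR). Its P72 libraries had 107, 122 and 117 CPM with R175H and 68.3, 94.9, 97.0 and 82.0 CPM with R273H, without overlap. PARP1, a nuclear enzyme that uses NAD, was higher (0.68, SE 0.10, adjusted p = 0.000148), and the antioxidant enzyme gene PRDX5 was lower (-0.66, SE 0.12, adjusted p = 0.00106). These 3 calls held in all 11 fits that left out a library. Without the batch term LONP1 stood at -0.43 and PARP1 at 0.43. The mitochondrial topoisomerase gene TOP1MT (-0.50, adjusted p = 0.00369) and the import motor gene TIMM44 (-0.49, adjusted p = 0.00485) lost theirs without R273H P72 replicate 1 (-0.34, adjusted p = 0.219 and 0.217). TIMM44 did not pass with GC corrected (-0.31, adjusted p = 0.0692) or without the batch term (-0.20, adjusted p = 0.290) either. CRTC1 was also lower (-1.21, adjusted p = 0.00506), but not without R175H R72 replicate 1 (-0.94, adjusted p = 0.0776), in batch b2 alone (-0.94, adjusted p = 0.0864) or without the batch term (-0.53, adjusted p = 0.262).

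Batch calls were made in 6 of the 7 lists, where 9.21% of all genes passed. ALAS1, which encodes the first enzyme of haem synthesis and is a described PGC-1α target, was higher in b2 (0.82, adjusted p = 0.000683, edgeR) with 14.6 to 20.1 CPM in b1 and 24.9 to 36.2 CPM in b2, and held in all 11 fits that left out a library. PRDX3, a mitochondrial peroxidase (0.64, adjusted p = 0.000725), POLG2, the accessory subunit of the mitochondrial DNA polymerase (0.95, adjusted p = 0.000977), GRSF1, a mitochondrial RNA-binding protein (0.45, adjusted p = 0.00143), and TOMM20, an import receptor (0.38, adjusted p = 0.00466), were higher too. LONP1 was lower in b2 (-0.41, adjusted p = 0.00509), but not with GC corrected (-0.20, adjusted p = 0.232). Without R273H P72 replicate 1 none of these 5 calls held, at 0.61 for PRDX3, 0.68 for POLG2, 0.42 for GRSF1, 0.39 for TOMM20 and -0.39 for LONP1 (adjusted p from 0.0625 to 0.183, edgeR). TOMM20 and LONP1 also lost theirs without R175H R72 replicate 1 (adjusted p = 0.0659 and 0.0792).

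Other partners of the 9 genes did not pass in any of the 6 comparisons. The mitochondrial RNA polymerase gene POLRMT ran from 16.6 to 27.6 CPM and its elongation factor TEFM from 2.19 to 4.92 CPM. GABPB1, the partner subunit of GABPA, ran from 44.9 to 56.5 CPM. Of the receptors, ESRRG ran from 2.12 to 5.42 CPM, PPARA from 17.7 to 27.8 CPM and PPARG from 0.115 to 1.61 CPM. The corepressor NRIP1 ran from 11 to 16.3 CPM, and the mitochondrial deacetylase SIRT3 from 13.8 to 23.3 CPM.

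Among the 8553 protein-coding genes compared with it over the 11 libraries, the pattern of PPARGC1A was most like those of FCGRT (Pearson r 0.85, Spearman rho 0.91), NVL (0.81 and 0.77) and ADAM19 (0.81 and 0.89). TFAM was most like FABP5 (0.94 and 0.92), IPMK (0.90 and 0.85) and NSUN2 (0.895 and 0.85). Each was the best of all candidates compared, and the libraries share batch and scaling, so the values only describe the order.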

How the data were processed

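RNA of 11 H1299 libraries was sequenced as Lexogen QuantSeq 3′ tags, single 75 bp reads on a NextSeq 500, per the labels' protocols. The authors deposited 1 table of estimated counts with a row for each Ensembl gene, and its values were whole numbers. The submitters' processing notes name Bowtie2, RSEM 1.2.12, DESeq2 and hg38, with no order or settings. Whether strand was used in counting is not given there or in the labels.

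Genes were filtered with filterByExpr (minimum count 10, minimum total 15), scaled by TMM and fitted with edgeR 4.0.16 (R 4.3.3), robust quasi-likelihood, on the 4 groups and batch, which left 6 residual degrees of freedom. Since 1 group has a single library, all groups share one estimate of the spread. The Benjamini-Hochberg adjustment ran over 16324 genes. CPM are TMM-scaled. Coordinates are from GENCODE 29 (hg38), 1-based. The fits for R72 over P72 on R175H, R273H over R175H on P72 and batch were run on simulated counts. Those counts gave every gene the same spread and had no GC effect. They check the code and not the spread of these data. Alternatives included DESeq2 1.42.0, limma-voom (limma 3.58.1), other scalings and filters, no batch term, b2 alone, each library left out, and a GC correction (spline of 5 degrees of freedom). Genes that got no adjusted p from DESeq2 were counted as not called by it. No replicate pair agreed within sampling noise, so none was merged.

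Named were the 9 members, 8 fixed partners, up to 6 called list genes with the smallest p per comparison, and the 3 nearest patterns of PPARGC1A and TFAM averaging 10 CPM or more. The level of the transfected gene is not reported here. The members and lists were chosen with earlier results of these data known.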

Additional observations from a re-analysis of the deposited data

Results flagged for a closer look

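GABPA was at 16.6 CPM in replicate 1 of R273H with P72, beside 7.84 to 9.30 CPM in the other 3 libraries of that group. The gap divided by the range was 0.834, above Dixon's critical value for 4 samples. The library is the only one of its group in batch b2. In TFB2M the same library gave a ratio of 0.748, under that value. The 9 genes were each looked at in this group, and chance alone passes the critical value in about 5% of groups.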

How the results depend on the processing

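Single log2 differences were followed where they were at least their SE and for PPARGC1A, 28 of 54 values. The number of members called was within 1.5 times the reported one in every alternative run, apart from the following. On R175H the fit without a filter called 1. For R273H over R175H on P72 batch b2 alone called 0, and the fits leaving out a library called 0 to 1. For batch the fits leaving out a library called 0 to 3. Without the batch term GABPA changed sign for R72 on R175H (-0.055), for R273H over R175H on P72 (-0.31) and in the difference of the R72 effects (0.41). Leaving out a library, GABPA for R273H over R175H on P72 ran from -0.057 to 0.39, and PPARGC1A for R72 on R175H from -0.37 to 0.043. The cause was not tested. Whether replicate numbers pair the libraries cannot be told from so few values. The deviations of R175H libraries with equal numbers correlated at 0.054, -0.0035 and 0.146. Those with unequal numbers correlated at -0.16 to 0.12, and P72 replicate 2 correlated best with R72 replicate 1 (0.12). With the replicate block TFB1M changed sign for R273H over R175H on R72 (-0.066), and 2 members were called for batch in place of 3 (ESRRA adjusted p = 0.0706, edgeR). CRTC1 for R72 on R175H stood at -1.16 with the block (adjusted p = 0.0645). Over all genes, R72 on R175H gave 185 calls, with 564 without a filter, 333 in DESeq2, 6 without the batch term, 81 with the block, 58 with GC corrected and 24 to 272 leaving out a library; by library totals 65 were higher and 105 lower. R72 on R273H gave 0 calls (1265 genes under an unadjusted p of 0.05), with 137 without a filter, 112 in DESeq2, 2 in limma-voom, 2 with the block, 1 in b2 alone and 0 to 6 leaving out a library. R273H over R175H on P72 gave 2376, with 866 in b2 alone and 1214 to 2463 leaving out a library. On R72 it gave 7, with 16 without a filter, 14 in DESeq2, 3 without the batch term, 2 with the 10 CPM filter, 2 with the block and 3 to 9 leaving out a library. The difference of the R72 effects gave 5, with 196 without a filter, 138 in DESeq2, 12 in limma-voom, 1 without the batch term, 1 with GC corrected, 2 with the block and 0 to 48 leaving out a library. Batch gave 1504, with 867 with the block, 861 with GC corrected and 271 to 1736 leaving out a library. PPARGC1A, at 22 to 49 counts, is the member most limited by depth.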
